A study of Mus musculus with 6 samples.

Results

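Cholesterol handling in the liver was followed through 30 genes, chosen by symbol from the 22851 genes of a liver expression matrix. All 30 were found, comprising 19 enzymes of cholesterol synthesis, 7 genes of uptake, lysosomal release and efflux, and 4 genes of sterol transfer and esterification. The livers came from male mice of the inbred strain C57BL/6J, all on a high-fat diet (HFD). The treated mice received ONX-0914, an inhibitor of the immunoproteasome subunit PSMB8, at 10 mg/kg under the skin every other day for 6 weeks, and the others received vehicle. There were 3 libraries per group (ONX-0914 1, 3 and 4, and vehicle 1, 2 and 4), while the design text gives 2 animals per group. The libraries hold no lean or untreated group, and the ages of the mice are not stated. The study concerns liver fat, HDAC2 and SREBP1 by its title, and treated livers are set against vehicle livers to see which transcripts differ after the drug. Values are FPKM, that is, reads or fragments scaled to gene length and to the library total. Which libraries came from separate animals is not stated, so a p-value here reflects only how these libraries vary, which may be technical.

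Hepatocytes make cholesterol from acetyl-CoA through mevalonate, the isoprenoids, squalene and lanosterol. When sterols in the endoplasmic reticulum run low, the transcription factor SREBP2 is cleaved, enters the nucleus and raises most synthesis genes together, along with receptors that take up lipoproteins. When oxysterols build up, the nuclear receptors LXRα and LXRβ raise the efflux transporters ABCA1 and ABCG1 and the ubiquitin ligase MYLIP, which directs the LDL receptor to degradation. Synthesis and efflux genes are thus known to answer to opposite sterol states.

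The deposited values summed to between 1041391 and 1247789 FPKM in treated libraries and between 993264 and 1074027 FPKM in vehicle libraries, and read totals are not given. Treated library 3 differed from its group: its score on a principal component that carried 77.3% of the variance was 10.6, beside 73.95 and 67.81 in treated libraries 1 and 4, while the vehicle libraries scored between -56.07 and -47.2. Results are therefore also given without that library and with it as the lone treated library. A test with 1 treated library takes its spread from vehicle alone, so its p-values and counts are only a description. Of 10743 genes tested with limma on log2(FPKM + 1), 43.5% were lower and 2.56% higher at an adjusted p under 0.05, with a median log2 fold change of -0.64. A second scaling, by median ratio, divided each library by a size factor (the median, over genes, of its value relative to the geometric mean), which set the median gene at 0.0034 and made 13.7% of genes lower and 14.3% higher. Long transcripts were lower than short ones in treated libraries: for the top 25% by length minus the bottom 25%, the median deviation from the vehicle mean (log2) was -0.95 in ONX-0914 1, -0.26 in ONX-0914 3 and -0.99 in ONX-0914 4, while the vehicle libraries lay between -0.03 and 0.04. After this length trend was taken out of each library (length-corrected values), 11.4% of genes were lower and 9.58% higher.

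All 7 uptake and efflux genes fell with ONX-0914, beside 43.5% of all genes tested, with a median log2 fold change of -1.56, and in none did the groups overlap. One of them, Abcg1, passed the filter on low values through the vehicle libraries alone and so had to differ, while Abca1 was above 1 FPKM in 5 libraries, Mylip in 4, and the other 4 genes in all 6. Of the 19 synthesis enzymes 7 fell, 1 rose and 11 did not pass, with a median of -0.69. Those 7 are a share near the 43.5% of all genes called lower, and the median of all 19 lies close to the -0.64 of the median gene. Treated values lay wholly below vehicle in 9 of the 19 enzymes and wholly above in 1, against 53.5% and 4.93% of all genes tested. Of the 4 transfer and esterification genes 3 fell. Relative to the median gene, after median-ratio scaling, the synthesis median was 0.066 and that of the uptake and efflux genes -0.82. Scaled so, 1 enzyme was called lower and 2 higher, and 3 of the 7 uptake and efflux genes were called lower and none higher. In length-corrected values these counts were the same, and the medians were 0.013 and -0.81. The shares over all genes were 13.7% lower and 14.3% higher by median ratio, and 11.4% and 9.58% by length. Set alone against vehicle, ONX-0914 3 gave 5 enzymes lower, 1 higher and 5 uptake and efflux genes lower, beside 27.9% of all genes lower and 2.88% higher. Without ONX-0914 3 these counts were 9, 2 and 7, beside 60.6% and 6.89% of all genes. Without vehicle 1, 4 enzymes were called lower, beside 2590 of the 10743 genes tested.

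By library, the median log2 difference of the synthesis enzymes from the vehicle mean was -1.35, -0.57 and -0.53 in treated libraries 1, 3 and 4, against 0.47, -0.27 and -0.16 in vehicle libraries 1, 2 and 4. For the uptake and efflux genes it was -2.07, -0.97 and -1.70 in the treated libraries, against -0.018, 0.043 and -0.017 in the vehicle libraries. In each treated library the median of the uptake and efflux genes lay below that of the synthesis enzymes and below the median gene. Single genes did not all do so: in ONX-0914 3, Lrp1 (-0.41) and Abca1 (-0.50) lay above the synthesis median.

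**Figure D1:**
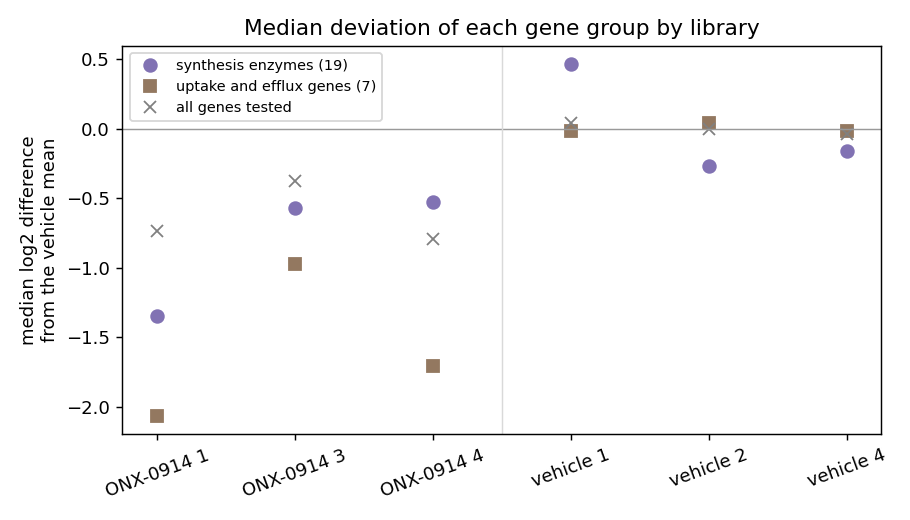
Median log2 difference of FPKM + 1 from the vehicle mean (vertical axis) in each library (horizontal axis), for the 19 synthesis enzymes, the 7 uptake and efflux genes and all genes tested. The uptake and efflux median is the lowest of the 3 in every treated library, between -2.07 and -0.97, while the synthesis median spreads from -0.27 to 0.47 among the vehicle libraries alone.

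Libraries of 1 group also varied. ONX-0914 1 was the lowest treated library in 13 of 19 enzymes. ONX-0914 3 was the highest treated library in all 7 uptake and efflux genes, yet in each of them it also lay below every vehicle library. Vehicle 1 held the highest of the 3 vehicle values in 17 of 19 enzymes and in 0 of 7 uptake and efflux genes. The coefficient of variation of the enzymes had a median of 33.8% across treated libraries and 30.4% across vehicle libraries. For the uptake and efflux genes it was 44.1% across treated libraries and 12.3% across vehicle libraries.

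Among the early enzymes, which make mevalonate and the isoprenoids, 4 of 8 fell and none rose, a share near the 43.5% of all genes called lower. In either rescaled set of values 1 of 8 was lower, beside 13.7% of all genes by median ratio and 11.4% by length. Hmgcs1, the synthase that makes HMG-CoA, was at 13.5, 46.8 and 36.7 FPKM in ONX-0914 libraries 1, 3 and 4, compared with 199.6, 92.2 and 111 FPKM in vehicle libraries 1, 2 and 4. Every treated library lay below every vehicle library, and Hmgcs1 averaged 32.3 ± 17.0 FPKM with ONX-0914 and 134 ± 57.3 FPKM with vehicle (SD, n = 3 each), with a log2 fold change of -2.11 (SE 0.44, adjusted p = 0.00626 by limma). It lies on chromosome 13 from 119690379 to 119708260 of GRCm38. Hmgcs1 was the only enzyme still called lower after median-ratio scaling (-1.31, limma adjusted p = 0.0487), and after length correction it was at -1.29 (adjusted p = 0.0527).

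Idi1, which isomerises isopentenyl diphosphate, had the lowest log2 fold change of FPKM + 1 of all 30 genes. By the ratio of means, treated over vehicle, Abcg1 (0.0940), Soat1 (0.148) and Mylip (0.163) were lower than Idi1 (0.227). Idi1 was at 2.10, 28.6 and 11.8 FPKM in ONX-0914 libraries 1, 3 and 4, compared with 89.9, 35.3 and 61.5 FPKM in vehicle libraries 1, 2 and 4. The treated values spanned a wide range, with the lowest in ONX-0914 1, and ONX-0914 3 came close to vehicle 2. The log2 fold change of -2.49 (SE 0.70, adjusted p = 0.0189 by limma) became -1.60 without ONX-0914 1 (adjusted p = 0.0322), the lowest library, and -3.23 without ONX-0914 3 (adjusted p = 0.00148) and was -0.999 for ONX-0914 3 alone against vehicle (adjusted p = 0.119), a test whose spread comes from vehicle alone. Idi1 missed the threshold without ONX-0914 4 or vehicle 1 or 4, with log2 fold changes of -2.63, -2.17 and -2.45 and limma adjusted p = 0.0532, 0.0679 and 0.0537. Idi1 was not called scaled by median ratio (-1.74, adjusted p = 0.0863).

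Pmvk, the phosphomevalonate kinase, was at 31.9, 45.4 and 63.5 FPKM in ONX-0914 libraries 1, 3 and 4, compared with 179, 91.8 and 104 FPKM in vehicle libraries 1, 2 and 4, with no overlap. Its log2 fold change of -1.39 (SE 0.32, adjusted p = 0.00872 by limma) stayed past the threshold after length correction (-1.24, adjusted p = 0.0337) but was -0.58 scaled by median ratio (adjusted p = 0.234). Acat2, a cytosolic acetoacetyl-CoA thiolase, was at 23.5, 25.2 and 32.0 FPKM in ONX-0914 libraries 1, 3 and 4, compared with 85.7, 51.1 and 52.7 FPKM in vehicle libraries 1, 2 and 4. All treated libraries were lower, with a log2 fold change of -1.17 (SE 0.26, adjusted p = 0.00719 by limma) and with -0.37 scaled by median ratio (adjusted p = 0.346). Mouse Acat2 has a close paralog, Acat3, whose reads the counting could split, so its value is uncertain. Acat3 had a log2 fold change of -0.02 (limma adjusted p = 0.923).

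The other early enzymes were not called. Fdps, which makes farnesyl diphosphate, was at 289, 255 and 365 FPKM in ONX-0914 libraries 1, 3 and 4, compared with 469.5, 281 and 303 FPKM in vehicle libraries 1, 2 and 4. The groups overlapped, and the log2 fold change of -0.19 (95% interval -0.74 to 0.36, limma adjusted p = 0.537) turned to 0.63 scaled by median ratio. Ggps1, which makes geranylgeranyl diphosphate outside the sterol branch, was at 8.80, 7.06 and 4.57 FPKM in treated livers, against 10.1, 5.93 and 7.73 FPKM in vehicle livers, with overlapping groups (log2 fold change -0.20, 95% interval -0.89 to 0.49). Mvk, the mevalonate kinase, was at 5.69, 8.34 and 16.8 FPKM in treated livers, against 18.1, 15.0 and 14.4 FPKM in vehicle livers. Its log2 fold change was -0.69 (95% interval -1.48 to 0.10), and without ONX-0914 4, the one treated library within the vehicle range, it was called lower (-1.08, adjusted p = 0.0266). Mvd, the decarboxylase that follows, was at 15.8, 12.5 and 38.0 FPKM in treated livers, against 32.0, 12.3 and 17.2 FPKM in vehicle livers, with the highest value in ONX-0914 4 and the next in vehicle 1.

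**Figure D2:**
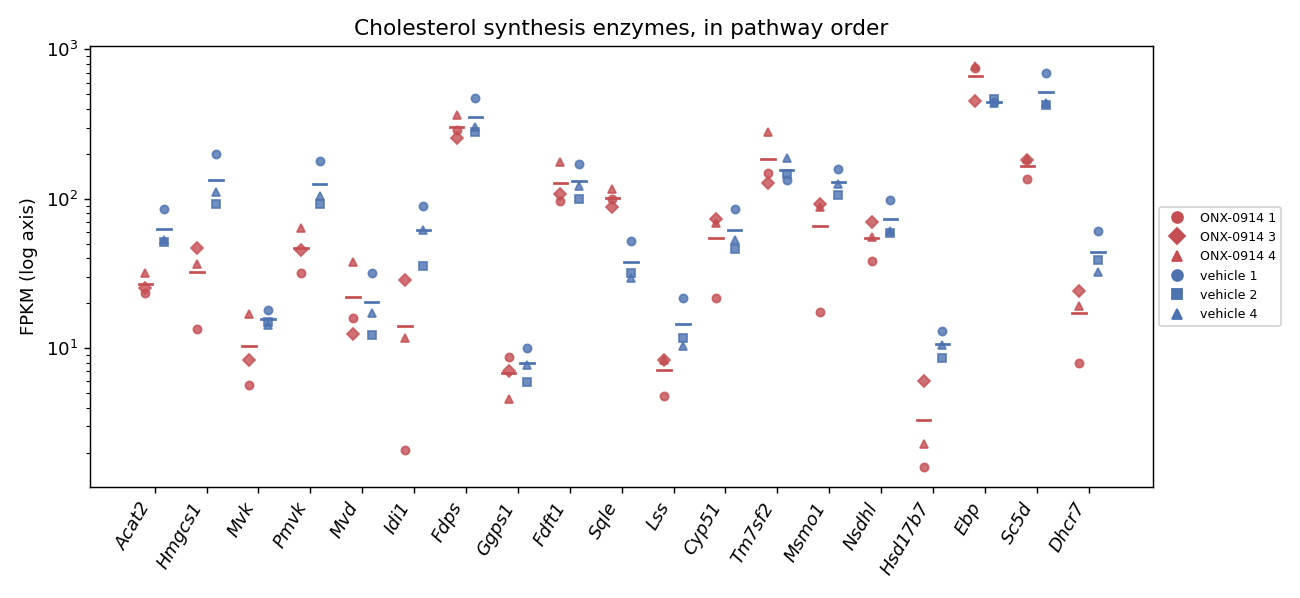
FPKM on a log axis (vertical) of the 19 synthesis enzymes in pathway order (horizontal), for each treated library (red, left of each pair) and vehicle library (blue, right); horizontal bars are group means and marker shapes give the library number. Sqle is the enzyme whose treated values, 88.4 to 117 FPKM, all lie above vehicle, while Idi1 and Hmgcs1 lie below with ONX-0914 1 lowest.

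From squalene on, in either rescaled set 0 of 11 enzymes were lower and 2 higher. Beside this, 13.7% of all genes were lower and 14.3% higher by median ratio, and 11.4% and 9.58% by length. As deposited, 3 of the 11 fell and 1 rose, beside 43.5% and 2.56% of all genes. The one that rose was Sqle, squalene epoxidase, which puts the first oxygen into the sterol path and is a known control point of that path. Sqle, on chromosome 15 from 59315077 to 59331192, was at 99.7, 88.4 and 117 FPKM in ONX-0914 libraries 1, 3 and 4, compared with 52.0, 31.8 and 29.3 FPKM in vehicle libraries 1, 2 and 4. The lowest treated library lay above the highest vehicle library, and Sqle averaged 102 ± 14.2 FPKM with ONX-0914 and 37.7 ± 12.5 FPKM with vehicle (SD, n = 3 each), with a log2 fold change of 1.44 (SE 0.25, adjusted p = 0.00343 by limma). The rise was 2.25 scaled by median ratio (limma adjusted p = 0.0063), 2.15 after length correction (adjusted p = 0.00495) and 1.253 for ONX-0914 3 alone. Sqle kept its direction in every treated library while Fdft1 just before it, squalene synthase, and Lss just after it, lanosterol synthase, showed no rise that passed the test. Fdft1 was at 96.8, 108 and 175 FPKM in treated livers, against 169.7, 100.4 and 122 FPKM in vehicle livers, so that the groups overlapped (log2 fold change -0.06, 95% interval -0.69 to 0.57). Lss was at 4.77, 8.39 and 8.30 FPKM in treated livers, against 21.6, 11.7 and 10.3 FPKM in vehicle livers. Its groups did not overlap, but it missed the threshold as deposited (log2 fold change -0.89, SE 0.34, limma adjusted p = 0.0538) and was called lower without ONX-0914 3 (-1.01, adjusted p = 0.0258).

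Ratios between enzymes within a library do not depend on a factor applied to the whole library, but the length trend remains in them. Sqle, at 2758 bases, is shorter than Lss (4667 bases) and Hmgcs1 (3464 bases). After length correction the log2 fold changes were 2.15 for Sqle, 0.013 for Lss and -1.29 for Hmgcs1. The Sqle to Lss ratio of FPKM was 20.9, 10.5 and 14.1 in treated libraries 1, 3 and 4, against 2.41, 2.72 and 2.85 in vehicle libraries 1, 2 and 4. The Sqle to Hmgcs1 ratio was 7.36, 1.89 and 3.18 in the treated libraries, against 0.261, 0.345 and 0.263 in the vehicle libraries. Sqle exceeded Hmgcs1 in all treated libraries and stayed below it in all vehicle libraries. Sqle lay wholly above vehicle, and Lss and Hmgcs1 wholly below, so both ratios had to differ and are only a description.

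Sc5d, the lathosterol oxidase near the end of the path, was at 135, 182 and 183 FPKM in ONX-0914 libraries 1, 3 and 4, compared with 691, 421 and 437 FPKM in vehicle libraries 1, 2 and 4. It was the most abundant of the 19 enzymes by mean FPKM in vehicle livers and the fourth in treated livers, where no library reached the vehicle range. Its log2 fold change of -1.60 (SE 0.24, adjusted p = 0.00219 by limma) was -0.78 scaled by median ratio (adjusted p = 0.0576). Dhcr7, which makes cholesterol from 7-dehydrocholesterol, was at 8.0, 24.2 and 19.2 FPKM in ONX-0914 libraries 1, 3 and 4, compared with 60.6, 38.7 and 32.6 FPKM in vehicle libraries 1, 2 and 4. The groups did not overlap (log2 fold change -1.39, SE 0.39, limma adjusted p = 0.0194). Hsd17b7, a sterol ketoreductase, was at 1.61, 6.05 and 2.29 FPKM in ONX-0914 libraries 1, 3 and 4, compared with 13.1, 8.64 and 10.5 FPKM in vehicle libraries 1, 2 and 4, and again no treated value reached the vehicle range (log2 fold change -1.56, SE 0.38, limma adjusted p = 0.0108). Neither Dhcr7 (-0.61, adjusted p = 0.227) nor Hsd17b7 (-0.90, adjusted p = 0.0606) was called scaled by median ratio. Dhcr7 missed the threshold without vehicle 1, with a log2 fold change of -1.14 and limma adjusted p = 0.0806. Hsd17b7 missed the threshold without vehicle 1, with a log2 fold change of -1.43 and limma adjusted p = 0.0503.

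Ebp, the sterol isomerase that acts before Sc5d, did not fall with it. Ebp was at 749, 452 and 774 FPKM in ONX-0914 libraries 1, 3 and 4, compared with 444, 462 and 436 FPKM in vehicle libraries 1, 2 and 4. ONX-0914 1 and 4 were high, and ONX-0914 3 lay within the vehicle range. As deposited the log2 fold change was 0.52 (95% interval -0.014 to 1.05, limma adjusted p = 0.0976). It passed as a rise scaled by median ratio (1.33, adjusted p = 0.0273), after length correction (0.94, adjusted p = 0.0379) and without ONX-0914 3 (0.77, adjusted p = 0.00247), and was 0.016 for ONX-0914 3 alone. The Ebp to Sc5d ratio was 5.54, 2.48 and 4.22 in the treated libraries, against 0.642, 1.10 and 0.997 in the vehicle libraries. As Sc5d lay wholly below vehicle, this ratio is only a description. The length trend remains in it, as Ebp has 1743 bases and Sc5d 4787. After length correction their log2 fold changes were 0.94 and -0.69. Ebp and Sqle together made up 49.6%, 32.5% and 38.1% of the summed FPKM of the 19 enzymes in treated libraries 1, 3 and 4, against 16.5%, 24.5% and 21.4% in vehicle libraries 1, 2 and 4. They were the enzymes called higher in both rescaled sets, so a larger joint share follows from that choice and is only a description. A share also rises when other enzymes fall, and the length trend remains in it. Sc5d made up 7.90%, 10.97% and 7.84% in the treated libraries, against 22.9%, 20.9% and 20.1% in the vehicle libraries. Fdps held a similar share in both groups, at 16.9%, 15.3% and 15.6% in treated livers, against 15.6%, 13.9% and 13.9% in vehicle livers.

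The other late enzymes were not called. Msmo1, the C4 methyl oxidase, was at 17.4, 92.6 and 88.7 FPKM in treated livers, against 159, 106 and 125 FPKM in vehicle livers. Its groups did not overlap, but ONX-0914 1 lay far below the other treated libraries and the log2 fold change of -1.27 had an SE of 0.54 (limma adjusted p = 0.0819). It was -0.50 without ONX-0914 1 (adjusted p = 0.115), while without ONX-0914 3 it was called lower (-1.67, adjusted p = 0.0264). Cyp51, the lanosterol demethylase, was at 21.7, 73.0 and 68.5 FPKM in treated livers, against 85.6, 46.4 and 53.2 FPKM in vehicle livers, with ONX-0914 1 alone below the vehicle range (log2 fold change -0.31, 95% interval -1.30 to 0.68). Tm7sf2, a sterol reductase, was at 149, 128 and 279.6 FPKM in treated livers, against 133, 146 and 188 FPKM in vehicle livers, with ONX-0914 4 above the vehicle range and ONX-0914 3 just below it (log2 fold change 0.18, 95% interval -0.48 to 0.85). Nsdhl, a decarboxylating dehydrogenase, was at 38.2, 69.5 and 55.8 FPKM in treated livers, against 98.6, 59.5 and 60.9 FPKM in vehicle livers, with overlapping groups (log2 fold change -0.42, 95% interval -1.06 to 0.23). The signs of Fdft1, Cyp51 and Nsdhl were positive in both rescaled sets of values.

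Promoter sequence was examined because SREBP2 acts on many of these enzymes through a sterol regulatory element, usually beside a CCAAT box bound by NF-Y. The window was the 250 bases before the RefSeq start on GRCm38.p6, which the reference table gave for 22 of the 30 genes, 16 of them synthesis enzymes. No window was available for Sqle, Fdps, Fdft1, Scarb1, Npc1, Abcg1, Stard4 and Soat2, so these were not examined. On either strand, TCACNCCAC, a form of the sterol regulatory element in which N is any base, was in 1.05% of 32851 promoters and in 1 member, Hmgcs1. CCAAT was in 33.9% of promoters, in 19 of the 22 members and in 15 of the 16 synthesis enzymes. The enzymes that hold CCAAT comprise both ones that fell, such as Idi1 and Sc5d, and Ebp, which did not. The 4 windows below are shown 5′ to 3′ on each gene's own strand to set these side by side. Capitals mark CCAAT read on the other strand (ATTGG) and, in Hmgcs1, the TCACCCCAC match from base -137 to -129 before the start.
Hmgcs1, chr13:119690101-119690350, plus strand: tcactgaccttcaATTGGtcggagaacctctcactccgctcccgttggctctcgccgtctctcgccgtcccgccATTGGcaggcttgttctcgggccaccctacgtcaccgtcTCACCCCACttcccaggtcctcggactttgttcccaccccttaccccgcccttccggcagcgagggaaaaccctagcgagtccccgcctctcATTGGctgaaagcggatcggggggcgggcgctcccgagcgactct
Idi1, chr13:8885356-8885605, plus strand: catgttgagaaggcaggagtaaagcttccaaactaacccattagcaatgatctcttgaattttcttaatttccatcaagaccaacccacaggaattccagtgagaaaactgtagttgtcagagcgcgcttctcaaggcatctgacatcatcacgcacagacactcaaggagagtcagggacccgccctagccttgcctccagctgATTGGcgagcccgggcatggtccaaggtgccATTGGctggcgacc
Sc5d, chr9:42264301-42264550, minus strand: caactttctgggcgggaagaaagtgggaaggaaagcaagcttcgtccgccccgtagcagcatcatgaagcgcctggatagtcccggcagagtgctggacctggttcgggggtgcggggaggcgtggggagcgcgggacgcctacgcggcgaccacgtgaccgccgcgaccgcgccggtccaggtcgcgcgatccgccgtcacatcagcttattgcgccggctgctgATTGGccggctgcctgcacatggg
Ebp, chrX:8193513-8193762, minus strand: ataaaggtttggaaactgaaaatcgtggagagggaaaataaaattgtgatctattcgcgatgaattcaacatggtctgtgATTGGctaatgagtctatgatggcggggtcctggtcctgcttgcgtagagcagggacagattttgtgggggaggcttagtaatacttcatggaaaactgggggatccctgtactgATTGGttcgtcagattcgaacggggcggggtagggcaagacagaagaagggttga
A match is a string of letters and not a measured binding site, and no match says only that these letters are not in the window.

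The uptake genes were lower in every treated library. Scarb1, the HDL receptor SR-BI, was at 17.0, 39.0 and 22.2 FPKM in ONX-0914 libraries 1, 3 and 4, compared with 66.6, 85.7 and 72.4 FPKM in vehicle libraries 1, 2 and 4. The highest treated library, ONX-0914 3, lay well below the lowest vehicle library. Scarb1 averaged 26.1 ± 11.5 FPKM with ONX-0914 and 74.9 ± 9.80 FPKM with vehicle (SD, n = 3 each), with a log2 fold change of -1.56 (SE 0.30, adjusted p = 0.00431 by limma). It stayed past the threshold by median ratio (-0.76, limma adjusted p = 0.0487) and by length (-0.90, adjusted p = 0.0329), and was at -0.92 in ONX-0914 3 alone. Lrp1, a large receptor for chylomicron remnants, was at 12.8, 27.5 and 12.9 FPKM in ONX-0914 libraries 1, 3 and 4, compared with 37.5, 41.6 and 32.4 FPKM in vehicle libraries 1, 2 and 4. Its log2 fold change of -1.11 (SE 0.31, adjusted p = 0.0178 by limma) came to -0.32 by median ratio (adjusted p = 0.315) and -0.41 in ONX-0914 3 alone (adjusted p = 0.15). Lrp1 has the longest transcript of the 30 genes, at 14888 bases. Lrp1 missed the threshold without ONX-0914 1 or 4 or vehicle 1 or 2, with log2 fold changes of -0.93, -0.94, -1.10 and -1.02 and limma adjusted p = 0.058, 0.0699, 0.0614 and 0.0683.

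Mylip, the ligase that marks the LDL receptor for degradation, lies on chromosome 13 from 45389742 to 45412022 and showed one of the tightest vehicle groups. It was at 0.790, 2.33 and 0.5 FPKM in ONX-0914 libraries 1, 3 and 4, compared with 7.28, 7.16 and 7.72 FPKM in vehicle libraries 1, 2 and 4. The treated libraries lay far below, with the highest in ONX-0914 3. Mylip averaged 1.21 ± 0.984 FPKM with ONX-0914 and 7.39 ± 0.295 FPKM with vehicle (SD, n = 3 each), with a log2 fold change of -2.01 (SE 0.32, adjusted p = 0.00245 by limma). It was called lower in each rescaled set of values (by median ratio -1.47, limma adjusted p = 0.0121, and by length -1.26, adjusted p = 0.0102). In ONX-0914 3 alone Mylip was at -1.33.

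The genes of the lysosomal exit of cholesterol fell together as deposited. Npc2, a soluble sterol-binding protein that hands cholesterol to NPC1, was at 91.2, 151 and 148 FPKM in ONX-0914 libraries 1, 3 and 4, compared with 273, 286 and 339 FPKM in vehicle libraries 1, 2 and 4. Npc1, the membrane transporter, was at 3.23, 7.03 and 5.64 FPKM in ONX-0914 libraries 1, 3 and 4, compared with 19.2, 19.98 and 12.5 FPKM in vehicle libraries 1, 2 and 4. In both genes the treated libraries lay wholly below vehicle, with log2 fold changes of -1.23 (SE 0.24, limma adjusted p = 0.00463) for Npc2 and -1.55 (SE 0.32, adjusted p = 0.0056) for Npc1. Neither was called scaled by median ratio, at -0.41 (limma adjusted p = 0.256) and -0.82 (adjusted p = 0.0523). In ONX-0914 3 alone Npc2 was at -0.97 and Npc1 at -1.155.

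The efflux transporters were low in treated livers. Abcg1, on chromosome 17 from 31057675 to 31117988, passes cholesterol to mature HDL and was at 0.430, 0.700 and 0.560 FPKM in ONX-0914 libraries 1, 3 and 4, compared with 5.95, 4.71 and 7.31 FPKM in vehicle libraries 1, 2 and 4. Every treated value was under 1 FPKM, so Abcg1 entered the test through the vehicle libraries alone and its p-value is only a description. It averaged 0.563 ± 0.135 FPKM with ONX-0914 and 5.99 ± 1.30 FPKM with vehicle (SD, n = 3 each), with a log2 fold change of -2.15 (SE 0.24, adjusted p = 0.00122 by limma). Since 1 is added before the log, this fold change understates the difference: the treated mean was 9.40% of the vehicle mean. Its log2 fold change was -1.64 scaled by median ratio, -1.22 after length correction and -2.02 in ONX-0914 3 alone. Abca1, which loads cholesterol onto lipid-poor apolipoprotein A-I, was at 1.80, 6.45 and 0.990 FPKM in ONX-0914 libraries 1, 3 and 4, compared with 9.32, 9.82 and 9.38 FPKM in vehicle libraries 1, 2 and 4. The vehicle values were tightly grouped, and ONX-0914 3 was much closer to them than ONX-0914 1 and 4 were. The log2 fold change of -1.60 (SE 0.44, adjusted p = 0.0173 by limma) was -0.50 in ONX-0914 3 alone (adjusted p = 0.0886), -0.97 scaled by median ratio (adjusted p = 0.0856) and -0.81 after length correction (adjusted p = 0.0828). Abca1 missed the threshold without ONX-0914 1 or 4 or vehicle 1, 2 or 4, with log2 fold changes of -1.45, -1.20, -1.61, -1.58 and -1.61 and limma adjusted p = 0.0599, 0.0613, 0.054, 0.0525 and 0.0518.

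**Figure D3:**
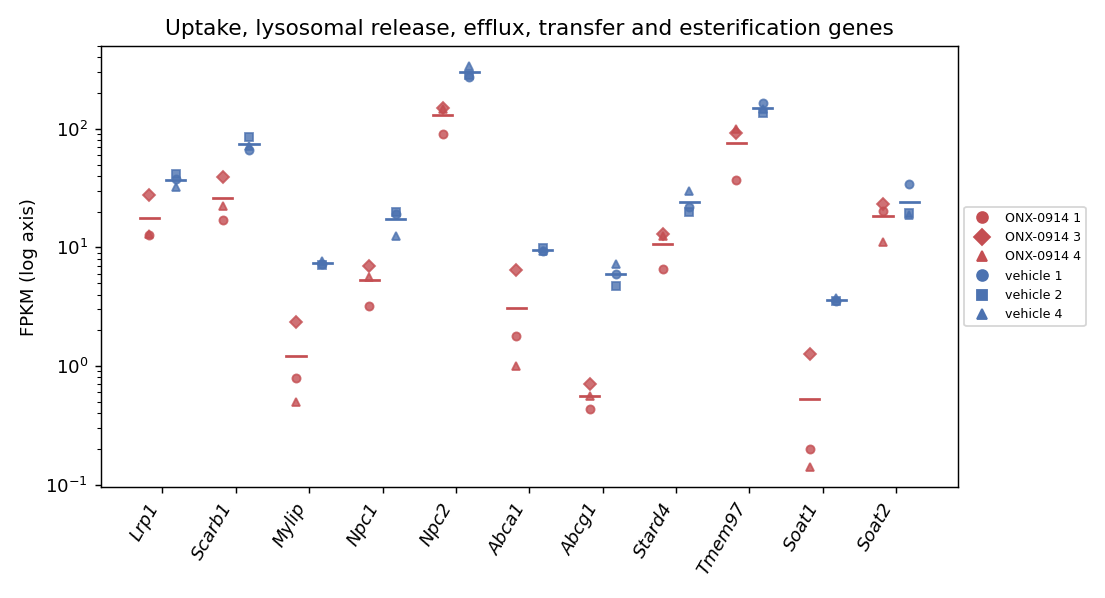
FPKM on a log axis (vertical) of the 7 uptake, lysosomal and efflux genes and the 4 transfer and esterification genes (horizontal), for each treated library (red, left of each pair) and vehicle library (blue, right); bars are group means and marker shapes give the library number. Treated values lie below vehicle in all but Soat2, and ONX-0914 3 is the highest treated library in each of the first 7 genes.

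The genes that move and store sterols inside the cell were uneven. Soat1, the acyltransferase that esterifies cholesterol in many cell types including macrophages, was at 0.200, 1.25 and 0.140 FPKM in ONX-0914 libraries 1, 3 and 4, compared with 3.5, 3.52 and 3.72 FPKM in vehicle libraries 1, 2 and 4. Vehicle libraries hardly differed, and all treated libraries were lower (log2 fold change -1.65, SE 0.28, limma adjusted p = 0.00308), also scaled by median ratio (-1.26, adjusted p = 0.016) and after length correction (-0.80, adjusted p = 0.0189). Soat1 was above 1 FPKM in only 4 libraries, so the size of its fall is imprecise. With 0.1 in place of 1 added before the log, its log2 fold change was -3. Soat2, the acyltransferase of hepatocytes and enterocytes, was at 20.4, 23.4 and 11.1 FPKM in treated livers, against 34.1, 19.4 and 18.7 FPKM in vehicle livers. Its groups overlapped, with a log2 fold change of -0.39 (95% interval -1.14 to 0.37) that turned to 0.39 scaled by median ratio. Stard4, a soluble sterol carrier, was at 6.63, 13.1 and 12.5 FPKM in ONX-0914 libraries 1, 3 and 4, compared with 21.8, 20.1 and 29.9 FPKM in vehicle libraries 1, 2 and 4, with no overlap (log2 fold change -1.12, SE 0.30, limma adjusted p = 0.0159). Tmem97, an endoplasmic reticulum protein that binds NPC1 and whose gene is a known SREBP target, was at 36.8, 92.5 and 99.7 FPKM in ONX-0914 libraries 1, 3 and 4, compared with 166, 135 and 146 FPKM in vehicle libraries 1, 2 and 4, also without overlap (log2 fold change -1.08, SE 0.35, limma adjusted p = 0.0316). Stard4 and Tmem97 were at -0.35 and -0.27 scaled by median ratio (limma adjusted p = 0.377 and 0.592), neither of them called. Stard4 missed the threshold without vehicle 4, with a log2 fold change of -0.95 and limma adjusted p = 0.0713. Tmem97 missed the threshold without vehicle 1, 2 or 4, with log2 fold changes of -0.997, -1.15 and -1.09 and limma adjusted p = 0.099, 0.0645 and 0.078.

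**Figure D4:**
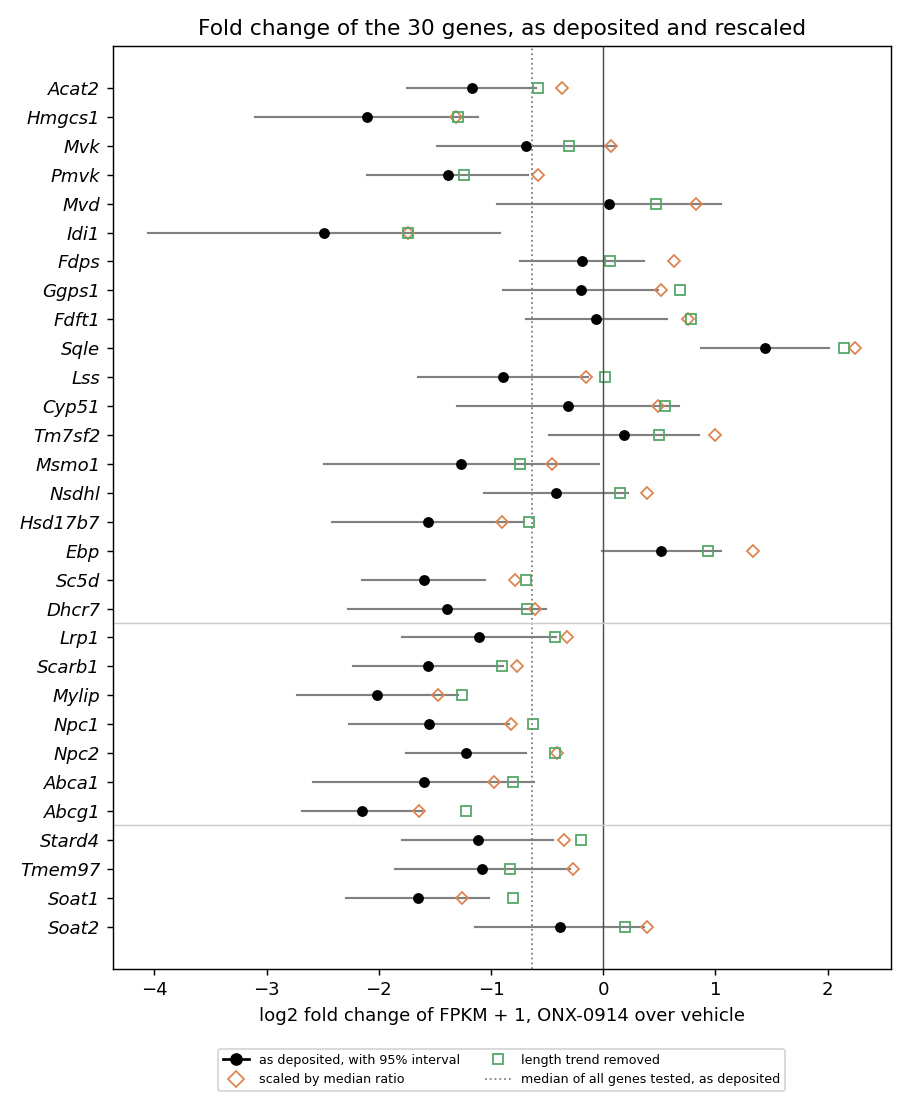
Log2 fold change of FPKM + 1, ONX-0914 over vehicle (horizontal axis), for the 30 genes (vertical axis, synthesis enzymes above, then uptake and efflux, then transfer and esterification), as deposited with 95% limma intervals, scaled by median ratio, and length-corrected. Rescaling moves most genes to the right. Hmgcs1, Idi1, Mylip, Abcg1 and Soat1 are among the genes left of 0 in all 3, and Sqle lies right of it in all 3.

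Transcript length differed between the gene groups. The median length of the longest protein-coding transcript was 2758 bases for the synthesis enzymes, 5224 bases for the uptake and efflux genes and 2892.5 bases over all genes tested. Across the 30 genes, which share the same 6 libraries, Spearman's rho between log2 fold change and length was -0.46, against -0.40 over all genes tested. After length correction, rho was -0.14 across the 30 genes, and 5 of them were called lower (Pmvk, Scarb1, Mylip, Abcg1 and Soat1) and 2 higher (Sqle and Ebp). The shares over all genes were then 11.4% lower and 9.58% higher. Scaled by median ratio the 5 called lower were Hmgcs1, Scarb1, Mylip, Abcg1 and Soat1, and the 2 higher were again Sqle and Ebp. Here 13.7% of all genes were lower and 14.3% higher. Abcg1, called lower in both, passed the filter on low values through vehicle alone. What part of the difference between the gene groups goes with length was not tested beyond these values.

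**Figure D5:**
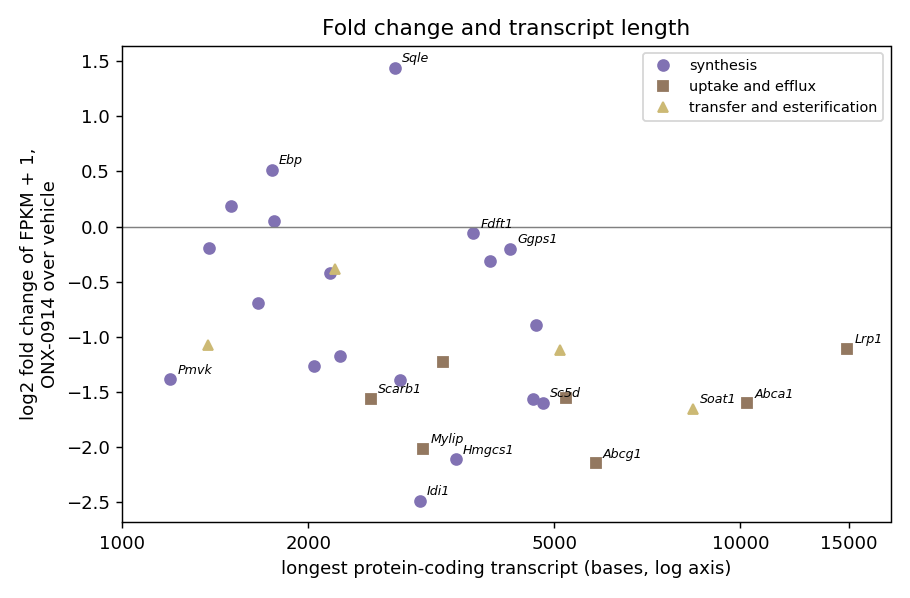
Log2 fold change of FPKM + 1, ONX-0914 over vehicle (vertical axis), against the length of the longest protein-coding transcript in bases on a log axis (horizontal), for the 30 genes by group. The longest, Lrp1, Abca1 and Soat1, all lie below -1, while Idi1, Hmgcs1 and Sqle, of like and middling length, lie at -2.49, -2.11 and 1.44.

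Several of these genes are also known in cells other than hepatocytes, among them Abca1, Abcg1 and Soat1 in macrophages and Scarb1 and Lrp1 in sinusoidal endothelium or macrophages. In bulk liver, fewer cells of a type and less RNA per cell cannot be told apart. Of 10 markers each, 10 endothelial, 7 Kupffer cell, 8 monocyte-derived macrophage and 8 stellate or fibroblast markers passed as falls as deposited, with no rise, beside 43.5% of all genes lower. Of these, Kdr, Tek, Itgam, Itgax and Pdgfrb were under 1 FPKM in every treated library, so that they passed the filter on low values through vehicle alone and had to be lower. Scaled by median ratio, beside 13.7% of all genes lower and 14.3% higher, the counts were 9 endothelial, 3 Kupffer cell and 4 stellate or fibroblast markers lower with none higher, and 2 monocyte-derived macrophage markers lower and 2 higher. After length correction, 9 endothelial, 5 Kupffer cell, 4 monocyte-derived macrophage and 3 stellate or fibroblast markers were lower and none higher. Beside them, 11.4% of all genes were lower and 9.58% higher. Summed FPKM of the endothelial markers ranged from 30.3 to 51.1 in treated livers, against 196.7 to 206.8 in vehicle livers. For Kupffer cell markers the sums were 593.7 to 977.4 in treated livers, against 1123 to 1730 in vehicle livers, and for monocyte-derived macrophage markers 393.1 to 468.8, against 729.9 to 1023. For stellate cell and fibroblast markers they were 63.6 to 139.8 in treated livers, against 276.6 to 361.9 in vehicle livers. Hepatocyte markers summed to 90740 to 132751 FPKM in treated livers, against 98316 to 103735 in vehicle livers, and 3 of 10 fell and 1 rose as deposited. By median ratio 0 of these hepatocyte markers were lower and 4 higher, and after length correction 0 and 2. No marker was listed at 0 in any library. The part of these cell types in the fall of Abca1, Abcg1, Soat1, Scarb1 and Lrp1 was not tested.

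Among other genes of cholesterol balance falls were also more frequent than rises as deposited, as they were over all genes (43.5% lower and 2.56% higher). Scaled by median ratio, the shares over all genes were 13.7% lower and 14.3% higher. Of 9 further genes of synthesis or nearby branches 6 fell and none rose, with a median of -0.97, and 1 was lower and none higher scaled by median ratio. Aacs, which activates acetoacetate for synthesis, had a log2 fold change of -1.81 (limma adjusted p = 0.00631) and one of -1.06 scaled by median ratio (adjusted p = 0.0797). Of 9 genes of SREBP regulation 7 fell and none rose (1 and none scaled by median ratio), among them Insig1, which holds SREBP in the endoplasmic reticulum, at 18.9, 51.8 and 38.0 FPKM in treated livers, against 201, 131 and 104 FPKM in vehicle livers (log2 fold change -2.03, SE 0.37, limma adjusted p = 0.00382, and -1.22 scaled by median ratio, adjusted p = 0.0309).

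Of 12 further genes of uptake and lysosomal release 10 fell and none rose, beside 43.5% of all genes lower (median -1.36). Scaled by median ratio 6 were lower and none higher, beside 13.7% of all genes lower. One of the 12, Stab2, is also among the endothelial markers above. Lipa, the lysosomal acid lipase that frees cholesterol from its esters, was at 14.4, 21.4 and 12.2 FPKM in treated livers, against 131, 112 and 146 FPKM in vehicle livers, with no treated library near the vehicle range (log2 fold change -2.97, SE 0.25, limma adjusted p = 0.000795, and -2.18 scaled by median ratio). Of 11 further genes of efflux and LXR signalling 5 fell and 1 rose (median -0.59), and 3 were lower and 1 higher scaled by median ratio. Abcg8, a partner in the canalicular sterol exporter, was at 7.11, 9.98 and 6.84 FPKM in treated livers, against 36.8, 36.3 and 18.99 FPKM in vehicle livers (log2 fold change -1.78, SE 0.30, limma adjusted p = 0.00311). The gene that rose was Apoa1, which encodes the main protein of HDL (log2 fold change 0.64, limma adjusted p = 0.045). The genes of LXRα and LXRβ, Nr1h3 and Nr1h2, were not called, at -0.23 and -0.59 (limma adjusted p = 0.348 and 0.0805). Of 14 genes of sterol transfer between membranes 12 were tested and 8 of these fell (2 scaled by median ratio), led by Vapb and Osbpl2, at -1.76 and -1.66 (adjusted p = 0.00568 and 0.00253).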

How the data were processed

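Liver RNA was extracted with TRIzol and mRNA enriched, per the labels' protocols. Tools named in the submitters' processing notes are cutadapt 1.11, edgeR, featureCounts 1.6.0, HISAT2 2.0.1 and FastQC 0.11.5, and builds GRCm38 and mm10, with neither roles nor order, and the annotation, not given in the sources used here, is unknown. The authors deposited FPKM, whose library totals and scaling are not stated, so low values carry few reads and no counting interval can be given. No matrix column lacked a sample (0).

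Genes above 1 FPKM in at least 3 libraries numbered 10743, all 30 members among them. They were compared on log2(FPKM + 1) by limma 3.58.1 (R 4.3.3) with trended variance and without a block. P-values were adjusted over all genes tested by Benjamini-Hochberg, at 0.05. This scale understates changes of low genes. The fit had been tested on simulated data with the same spread in both groups. These held no length trend, shift of the median gene or outlying library, so the fit was not tested under those conditions. Size factors for the median ratio used genes above 0 in every library. The length trend was a lowess curve (span 0.3) through each library's difference from the mean of vehicle against the longest protein-coding GENCODE M21 transcript, available for 98.2% of genes, and its removal also centres a library. Positions are from GENCODE M21 and promoters from RefSeq. 12 alternative settings were run. The members and lists were chosen with earlier results of these data known. All members are named, and from each other list up to 3 called genes with the largest fold change, some of which are not reported here; Apoa1, Nr1h2, Nr1h3, Stab2 and the markers under 1 FPKM in treated livers were named after their values were seen.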

Additional observations from a re-analysis of the deposited data

How the results depend on the processing

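Against 7 synthesis enzymes lower and 1 higher, median-ratio scaling and removal of the length trend each gave 1 lower and 2 higher, and the replicate block gave 2 higher. The 7 uptake and efflux genes lower became 3 in each rescaled set. Over all genes the shares were 13.7% lower and 14.3% higher by median ratio, and 11.4% and 9.58% by length. The synthesis median of -0.69 turned to 0.066 and 0.013, and the uptake and efflux median of -1.56 moved to -0.82 and -0.81, by median ratio and by length; it was -0.97 for ONX-0914 3 alone. Leaving out 1 library at a time gave 4 to 9 enzymes lower, 4 without vehicle 1, and 1 or 2 higher, 2 without ONX-0914 3. It gave 5 to 7 uptake and efflux genes lower and 0 higher, and medians of -1.01 to -0.38 and -1.89 to -1.31. Over all 10743 genes the number lower also moved, from 2590 without vehicle 1 to 6514 without ONX-0914 3. The number higher over all genes ran from 92 to 740 in the same 2 fits. Genes whose sign turned were not called: by median ratio Mvk (0.066), Fdps (0.63), Ggps1 (0.51), Fdft1 (0.75), Cyp51 (0.49), Nsdhl (0.39) and Soat2 (0.39); by length Fdps (0.061), Ggps1 (0.68), Fdft1 (0.78), Lss (0.013), Cyp51 (0.55), Nsdhl (0.15) and Soat2 (0.19); in ONX-0914 3 alone Mvd (-0.57), Cyp51 (0.29), Tm7sf2 (-0.26) and Soat2 (0.013). With 1 library left out, values spanned -0.41 to 0.41 for Mvd, -0.33 to 0.037 for Fdps, -0.38 to 0.023 for Ggps1, -0.32 to 0.14 for Fdft1, -0.61 to 0.24 for Cyp51 and -0.15 to 0.41 for Tm7sf2. The cause of these shifts was not tested. A pseudocount of 0.1 changed no call among the 30 genes, and testing without a filter ended only that of Tmem97 (adjusted p = 0.0619). The groups share only replicate numbers 1 and 4. The deviations of same-numbered libraries correlated at 0.0011 and 0.13, and those of unlike-numbered ones at 0.10 and -0.12. With so few libraries these values can neither show nor exclude pairing. The labels give no pairing, so the numbers are not taken as such. A replicate block takes its fold change from libraries 1 and 4 of each group alone, since numbers 2 and 3 occur in only 1 group each. With the block 9 enzymes and all 7 uptake and efflux genes were lower, beside 5973 of 10743 genes tested. In the same fit 2 enzymes were higher, beside 604 of all genes. Lss, Msmo1 and Soat2 were added to the falls and Ebp to the rises. Depth is unknown, so values under 1 FPKM, such as treated Abcg1, are imprecise.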
